A study of Homo sapiens with 12 samples.

Results

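In the edited clone K562/SSedit-2, 68 genes were counted at 0.5 or less of their level in both parental K562 cells and etoposide-resistant K/VP.5 cells. The genes were chosen on normalized counts (CPM, per 1e6 counts), each count as a share of the library's total. A gene qualified if its mean was at least 1 CPM in K562, its K/VP.5 mean was over 0.5 of the K562 mean, its K562/SSedit-2 mean was at most 0.5 of either of those means, and each K562/SSedit-2 replicate lay below each replicate of both other lines. TOP2A was left out, but it did not meet the rule in any case, since its K562/SSedit-2 mean was 0.676 of its K/VP.5 mean. Of 60671 genes in the count table, 12577 met the first 2 conditions and are called eligible here, and the 68 members are 0.541% of them. Since the values of all 3 lines chose the members, differences between the lines are described for them without p-values.

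RNA of 3 cell lines was sequenced, with 4 replicates per line. K562 is a human leukemia line with erythroid character. K/VP.5 is a clone of K562 selected for growth in etoposide, a drug that traps DNA topoisomerase IIα (TOP2α, gene TOP2A) on cleaved DNA. K562/SSedit-2 is a single K562 clone in which 2 of 3 TOP2A alleles had the 5′ splice site between exon 19 and intron 19 replaced by CRISPR/Cas9 with homology-directed repair. All lines were grown in DMEM with 10% FBS and harvested in mid-log phase, and the labels name no drug during growth of the sequenced cultures. K/VP.5 and K562/SSedit-2 are 1 clone each, so the edit, the derivation of the clone and the drug selection cannot be told apart from other differences between clones. No source says whether the replicates were separate cultures, and their spread may be partly technical.

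TOP2A itself was counted at 462, 351, 383 and 399 CPM in the K562 replicates, 281, 279, 286 and 273 CPM in those of K/VP.5, and 199, 176, 177 and 204 CPM in those of the edited clone. Its log2 fold change was -1.07 (SE 0.09, adjusted p = 1.05e-06) in K562/SSedit-2 against K562 and -0.52 (SE 0.09, adjusted p = 0.000132) against K/VP.5, and it was -0.55 (SE 0.09, adjusted p = 8.58e-05) in K/VP.5 against K562, by the quasi-likelihood test of edgeR, adjusted after Benjamini and Hochberg. Libraries held 36883518 to 43648830 counts for K562, 28981722 to 39944440 for K/VP.5 and 32355417 to 37619488 for the edited clone, so that 3 counts equal 0.0687 to 0.104 CPM. K562 replicate 1 stood apart from the other libraries of its line, with a chi-square per degree of freedom of 62.3 to 65.6 against them, where the other K562 pairs gave 6.65 to 20.7. Without it the TOP2A ratio of K562/SSedit-2 to K562 was 0.501 instead of 0.474. Of 18 K562 markers, 17 reached 1 CPM in K562 and 18 in the other lines, and of 20 markers of other cell types 8, 5 and 8 did in K562, the resistant clone and the edited clone. The markers of other types summed to 214 to 278, 196 to 202 and 245 to 287 CPM in the libraries of those lines, mostly EPCAM, and CDH5 was at 0 in every library. Their part in the results was not tested. In bulk RNA, fewer cells that transcribe a gene and less RNA per cell cannot be told apart.

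The members do many kinds of work. Collagens, laminins and proteoglycans build the extracellular matrix, and enzymes and chaperones of the endoplasmic reticulum hydroxylate and fold procollagen before it is secreted. Guanine nucleotide exchange factors switch small GTPases on, zinc finger and POU or homeobox proteins bind DNA, and NLR proteins are cytosolic components of innate immunity. Blood cells are not the main site of matrix production, and several of these genes are best known from connective tissue, nerve or germ cells.

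Of the 68 members, 63 were protein coding (92.6%, against 82.0% of eligible genes), 3 were long non-coding RNAs and 2 were pseudogenes. They were counted less often than most eligible genes. Their median K562 mean was 2.76 CPM, against 26.3 CPM over the eligible genes. In K562, 25 members were under 2 CPM (36.8%, against 11.1% of eligible genes) and 18 were at 10 CPM or more (26.5%, against 67.4%). Summed over the members, each K562 library held 587 to 674 CPM, each K/VP.5 library 1684 to 1714 CPM and each K562/SSedit-2 library 224 to 280 CPM. The rule itself places the sums of the edited clone below the others. Each K/VP.5 sum was above each K562 sum.

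The median ratio of the K562/SSedit-2 mean to the K562 mean was 0.390 over the members and 0.979 over the eligible genes. Against the lower of the other lines, 33 members lay between 0.4 and 0.5, 11 at or below 1/5 and 7 at or below 0.1. The heat map orders them by that ratio. The edited clone was moderately lower in most members and nearly without counts in a few. Replicate spread was wider for the members than for the eligible genes, with a median coefficient of variation of 15.8% in K562 and 22.3% in K562/SSedit-2, against 11.2% and 8.78%. In K/VP.5 it was 7.45%, against 6.94% for the eligible genes.

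**Figure D1:**
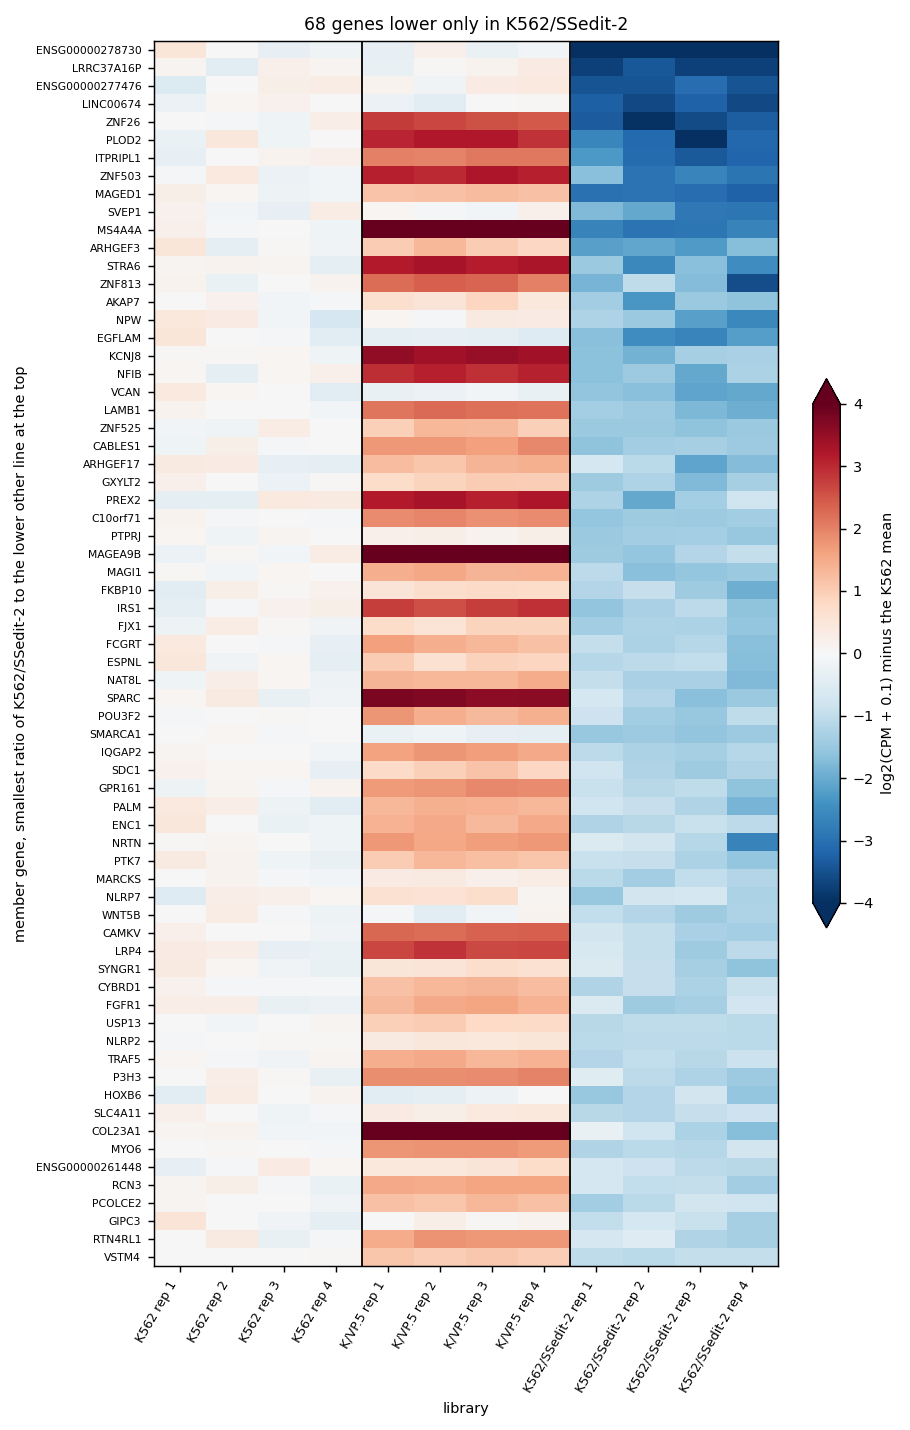
Values of the 68 members (rows) in the 12 libraries (columns), as log2(CPM + 0.1) minus the mean of the K562 libraries, with blue lower and red higher and the color scale ending at 4 in either direction. The 4 K562/SSedit-2 columns are blue throughout, and most K/VP.5 rows are red: 61 members had a higher mean in K/VP.5 than in K562.

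The members were not simply equal in the other lines. The rule set only a lower limit on K/VP.5, yet 61 of 68 members had a higher mean there than in K562 (89.7%, against 52.3% of eligible genes). In 42 the K/VP.5 mean was at least 2 times the K562 mean (61.8%, against 4.72%), and in 5 at least 10 times (7.35%, against 0.262%). In 55 members each K/VP.5 replicate lay above each K562 replicate (80.9%), where 24.7% of the eligible genes did so. In 1 member, SMARCA1, each K/VP.5 replicate lay below each K562 replicate, and in 12 the replicates overlapped. The median ratio of K/VP.5 to K562 was 2.49 over the members and 1.01 over the eligible genes. A gene that is high in K/VP.5 meets the limits on that line more easily, so nothing further is read from these shares.

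A change of at least 2-fold at 10% false discovery rate in edgeR's fit of all lines was used as a common cutoff. Among 18626 tested genes, 1.26% were lower past it in K562/SSedit-2 than in K562, and 66 of the 68 members were. The exceptions were VSTM4 and RTN4RL1, whose log2 fold changes were -0.998 and -0.99. Against K/VP.5, 9.62% of tested genes and 67 members were lower in K562/SSedit-2, HOXB6 being the exception at -0.99. Between K/VP.5 and K562, 8.98% of tested genes were higher in K/VP.5 and 6.66% lower, and 42 and 0 of the members were. The rule used each of these contrasts, so the counts describe the members and carry no further reading. Their median log2 fold changes were -1.35, -2.73 and 1.27 in the same order, where the medians of all tested genes were -0.01, -0.01 and 0.01.

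**Figure D2:**
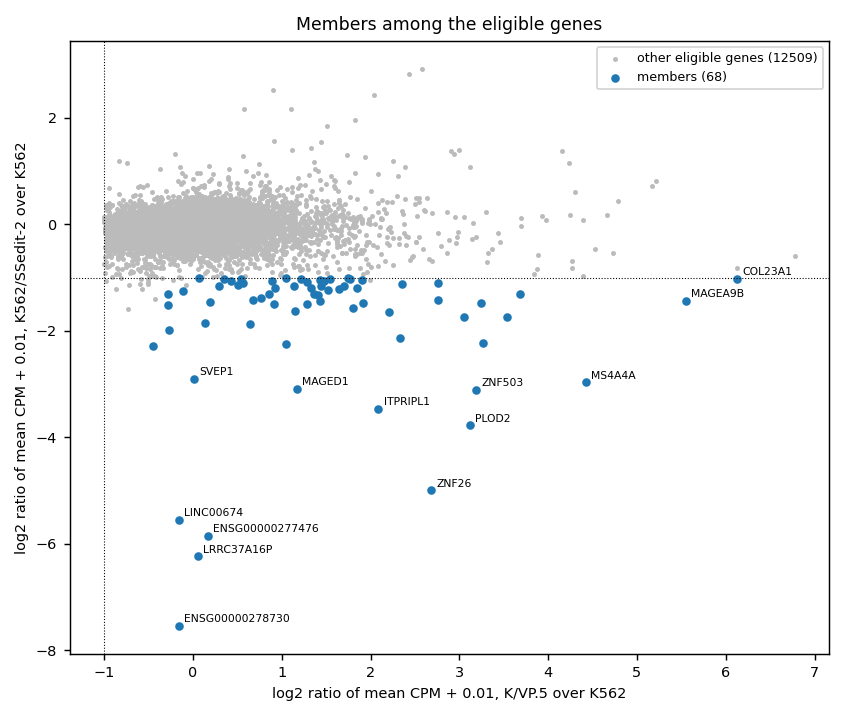
Log2 ratio of mean CPM + 0.01 in K562/SSedit-2 over K562 (vertical) against the same ratio for K/VP.5 over K562 (horizontal), for 68 members (blue) and the other eligible genes (grey), with dotted lines at a log2 ratio of -1. The members extend far to the right, up to COL23A1 at 70.2 times K562, and 4 genes of a chromosome 17 run lie at the bottom near equal K562 and K/VP.5 levels.

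By the ratio of means to the lower of the other lines, the 4 lowest members were neighbouring genes on chromosome 17. LINC00674, LRRC37A16P, ENSG00000278730 and ENSG00000277476 lie within chr17:68101908-68152468 (GRCh38, positions from GENCODE 44), a stretch of 50.6 kb. GENCODE lists LINC00674 and LRRC37A16P as transcribed pseudogenes, the latter of the LRRC37A family, and the other 2 as long non-coding RNAs. Both RNAs lie within the span of LRRC37A16P on the opposite strand. The strand setting of the counting is not given in the sources used here, so reads of these 3 genes may not be told apart. Reads from LRRC37A paralogs could also be split between copies.

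The 4 genes together were counted 211, 213, 194 and 212 times in the K562 libraries, 177, 183, 177 and 165 times in K/VP.5, and 1, 1, 2 and 0 times in K562/SSedit-2. K562/SSedit-2 libraries thus held 4 counts in all, where K562 held 830 and K/VP.5 held 702. No library of the edited clone came near any library of the other lines.

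ENSG00000278730 was counted 99, 78, 52 and 64 times in K562 and at 0 in each K562/SSedit-2 library. With a floor of 3 counts per library it was at least 21.5-fold lower than in K562 and at least 19.2-fold lower than in K/VP.5. LRRC37A16P had 1 count in K562/SSedit-2 against 195 in K562, a ratio of depth-scaled counts of 0.0058 (95% exact interval 0.000146 to 0.0327). The ratio was 0.0125 (0.0015 to 0.0458) for LINC00674, with 2 counts against 181. For ENSG00000277476, with 1 count against 161, it was 0.00702 (0.000177 to 0.0397). At the floor of 3 counts per library, LRRC37A16P, LINC00674 and ENSG00000277476 were 14.5, 13.3 and 11.8-fold below K562 and ZNF26, described next, 17.01-fold, so these counts do not order the genes among themselves. These intervals and floors cover counting error only. In K/VP.5 the 4 genes lay at 0.893, 1.04, 0.894 and 1.13 times K562 for LINC00674, LRRC37A16P, ENSG00000278730 and ENSG00000277476, so their K562 and K/VP.5 levels differed little.

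The expressed genes on both sides did not share this difference. KPNA2, a nuclear import receptor 54.5 kb below the run, was at 316 CPM in K562 cells, 382 in K/VP.5 and 320 in the edited clone. AMZ2, a metalloprotease gene 53.0 kb above it, was at 36.5, 27.6 and 32.9 CPM. Between these flanks, which are 158 kb apart, the table holds 8 other genes, all with few counts. Those genes summed to 33 counts over the K562 libraries, 42 over those of K/VP.5 and 3 over those of the edited clone, of which ENSG00000274561, inside the run, held 25, 22 and 0. TOP2A lies 27.7 Mb away on the same chromosome.

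**Figure D3:**
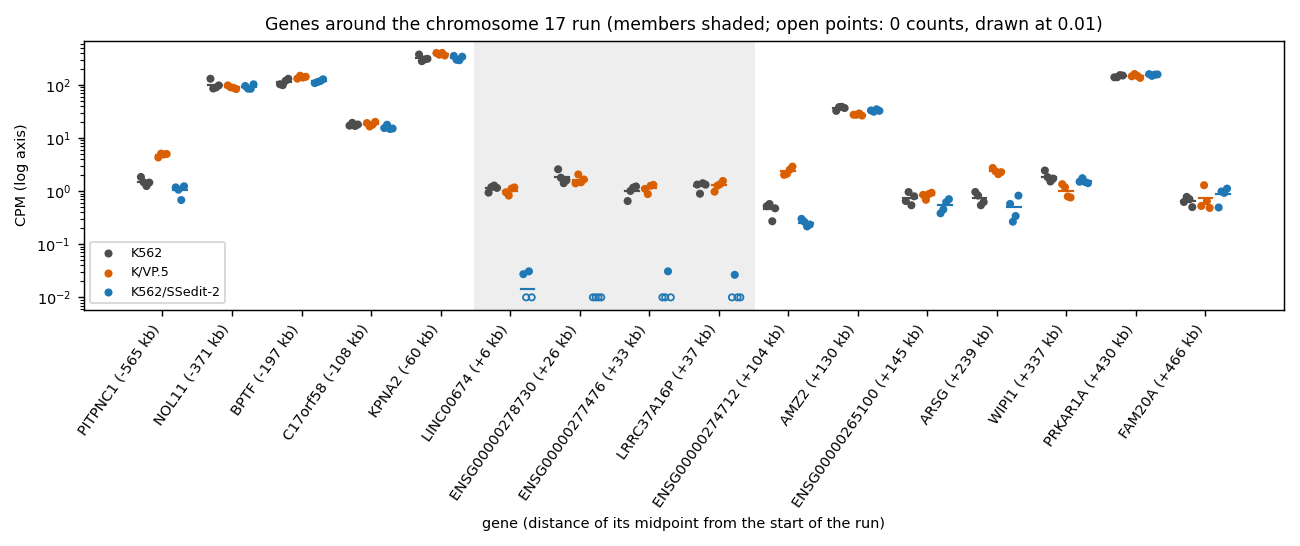
CPM (log axis) of genes with at least 0.3 CPM in K562 around the chromosome 17 run, in chromosomal order with the distance of each gene's midpoint from the start of the run, 4 libraries per line and a bar at the mean, open points standing for 0 counts. The 4 shaded members sit near 1 CPM in K562 and K/VP.5 and at or near 0 in K562/SSedit-2, while the points of the lines lie close together for KPNA2 and AMZ2 beside them.

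Outside the run, 7 further members were at 1/5 or less of the lower line. Each lies on a different chromosome.

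ZNF26 (ENSG00000198393, chr12:132986365-133032952), a zinc finger gene, was at 1.43, 1.37, 1.27 and 1.75 CPM in the K562 replicates, 10.6, 9.71, 8.87 and 8.42 in K/VP.5, against 0.0547, 0, 0.0309 and 0.0588 in the edited clone. Those last values are 2, 0, 1 and 2 counts. The ratio of depth-scaled counts to K562 was 0.0244 (95% exact interval 0.00784 to 0.0577), and the fitted log2 fold change was -5.22 (SE 0.34). ZNF84, the next expressed gene at 4.34 kb, was at 7.13 CPM in K562 cells, 7.905 in K/VP.5 and 7.67 in the edited clone. ZNF26 was also 6.46 times as high in K/VP.5 as in K562, so that the 3 lines held 3 separate levels.

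PLOD2 (ENSG00000152952, chr3:146035139-146163725) encodes a lysyl hydroxylase that prepares collagen telopeptides for cross-linking. It was at 1.93, 3.23, 2.06 and 2.37 CPM in K562 cells, 20.2, 22.5, 22.7 and 18.1 in K/VP.5, against 0.301, 0.186, 0 and 0.176 in the edited clone. The edited clone was 14.5-fold lower than K562 on the means, with a log2 fold change of -3.78 (SE 0.34), and 126-fold lower than K/VP.5.

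ITPRIPL1 (ENSG00000198885, chr2:96325317-96330517), a membrane protein related to the inositol trisphosphate receptor interacting protein, gave 1.46, 1.86, 2.06 and 2.15 CPM in K562. It gave 7.76, 7.73, 8.29 and 8.32 CPM in K/VP.5, against 0.301, 0.133, 0.0927 and 0.118 in the edited clone, with a log2 fold change of -3.48 (SE 0.25) against K562. Its neighbours SNRNP200 and NCAPH, 4.05 kb and 5.25 kb away, were at 851 and 76.5 CPM in K562 and at 846 and 73.4 CPM in K562/SSedit-2. Their log2 ratios were -0.01 and -0.06, so the difference in ITPRIPL1 was not shared by the genes on either side.

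ZNF503 (ENSG00000165655, chr10:75397830-75401764), a developmental zinc finger repressor, was at 1.04, 1.47, 0.922 and 0.9997 CPM in K562 and 0.273, 0.0532, 0.0927 and 0.0588 in the edited clone. In K/VP.5 it was at 10.2, 9.38, 11.1 and 10.1 CPM. Replicate 1 of the edited clone, with 10 counts, was the highest of its line, and the others held 2, 3 and 2.

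MAGED1 (ENSG00000179222, chrX:51803007-51902354) encodes a type II MAGE adaptor that binds the neurotrophin receptor p75 and promotes apoptosis. It combined a large difference with high counts. The K562 replicates gave 43.95, 39.5, 32.5 and 34.8 CPM, the K/VP.5 replicates 82.2, 83.7, 89.2 and 84.6 CPM and the K562/SSedit-2 replicates 4.62, 4.73, 4.42 and 3.88 CPM. The edited clone was 8.54-fold lower than K562 (log2 fold change -3.09 (SE 0.11)) and 19.2-fold lower than K/VP.5.

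SVEP1, a large secreted adhesion protein, was at 1.22, 0.985, 0.8405 and 1.35 CPM in K562 and at 1.15, 1.02, 0.999 and 1.28 CPM in K/VP.5. In K562/SSedit-2 it was at 0.246, 0.186, 0.0618 and 0.0588 CPM, from 9, 7, 2 and 2 counts. Unlike the preceding genes, its K562 and K/VP.5 replicates overlapped.

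MS4A4A, a membrane-spanning protein known from macrophages and mast cells, was at 5.81, 4.88, 5.12 and 4.47 CPM in K562 cells, 116, 98.7, 113 and 108 in K/VP.5, against 0.711, 0.558, 0.587 and 0.705 in the edited clone. The edited clone was 7.92-fold below K562, and K/VP.5 was 21.5 times K562.

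**Figure D4:**
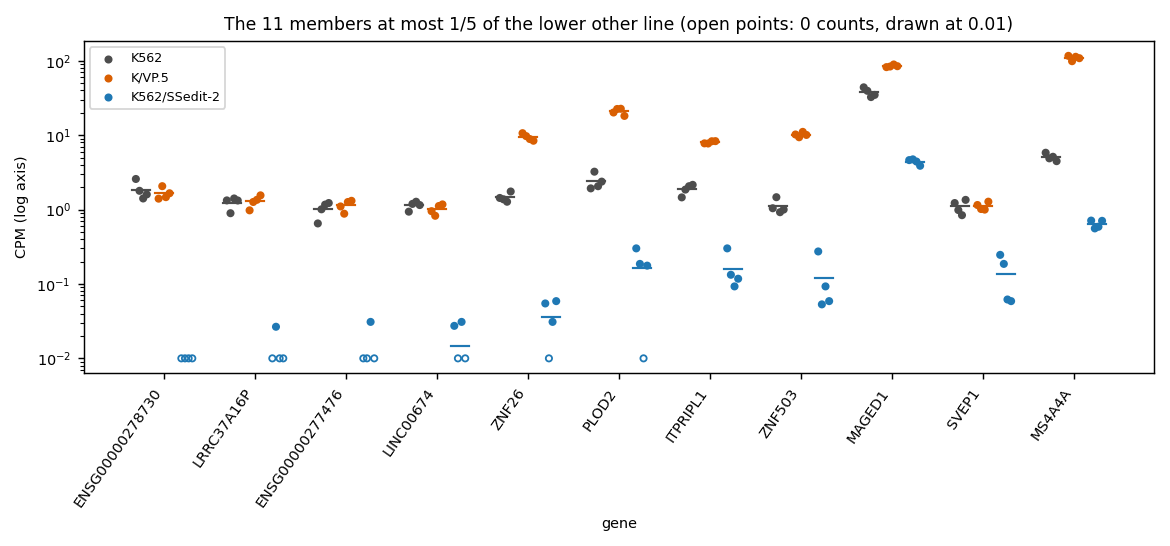
CPM (log axis) of the 11 members whose K562/SSedit-2 mean was at most 1/5 of the lower other line, 4 libraries per line with a bar at the mean where it exceeds 0.01, and open points for 0 counts drawn at 0.01. The chromosome 17 genes and SVEP1 have K562 and K/VP.5 points side by side, and in the other 6 the K/VP.5 points lie above those of K562.

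Promoter sequences are shown for 4 of these genes. By ratio to the lower line they were the lowest among the 50 members for which a promoter sequence was found. ENSG00000278730, LRRC37A16P and ENSG00000277476 were lower and had none. They are RefSeq sequences of GRCh38.p14 from 250 bases before to 50 bases after the start, 5′ to 3′ on the gene's strand. Capitals mark matches on either strand to the motifs searched, of which GGGCGG (GC box), CAGCTG (an E-box) and CCAAT occur here.

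LINC00674 (chr17:68101305-68101604, plus strand): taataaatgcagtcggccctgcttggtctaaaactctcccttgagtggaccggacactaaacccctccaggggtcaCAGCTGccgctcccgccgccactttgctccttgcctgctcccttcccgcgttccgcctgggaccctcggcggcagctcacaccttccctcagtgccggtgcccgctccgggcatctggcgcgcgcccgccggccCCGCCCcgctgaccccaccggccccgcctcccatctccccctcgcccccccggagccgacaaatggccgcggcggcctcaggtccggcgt

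ZNF26 (chr12:132986117-132986416, plus strand): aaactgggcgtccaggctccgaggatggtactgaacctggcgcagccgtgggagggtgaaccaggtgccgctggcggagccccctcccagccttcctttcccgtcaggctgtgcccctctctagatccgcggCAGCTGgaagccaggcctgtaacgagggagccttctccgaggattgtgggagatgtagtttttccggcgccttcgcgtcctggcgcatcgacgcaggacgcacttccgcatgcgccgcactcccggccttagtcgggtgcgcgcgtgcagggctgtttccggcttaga

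PLOD2 (chr3:146161135-146161434, minus strand): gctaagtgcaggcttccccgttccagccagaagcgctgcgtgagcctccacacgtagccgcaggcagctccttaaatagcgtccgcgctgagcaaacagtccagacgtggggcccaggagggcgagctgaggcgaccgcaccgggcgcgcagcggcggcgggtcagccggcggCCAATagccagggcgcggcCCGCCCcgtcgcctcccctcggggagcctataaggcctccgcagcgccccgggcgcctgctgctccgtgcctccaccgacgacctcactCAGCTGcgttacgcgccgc

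ITPRIPL1 (chr2:96325067-96325366, plus strand): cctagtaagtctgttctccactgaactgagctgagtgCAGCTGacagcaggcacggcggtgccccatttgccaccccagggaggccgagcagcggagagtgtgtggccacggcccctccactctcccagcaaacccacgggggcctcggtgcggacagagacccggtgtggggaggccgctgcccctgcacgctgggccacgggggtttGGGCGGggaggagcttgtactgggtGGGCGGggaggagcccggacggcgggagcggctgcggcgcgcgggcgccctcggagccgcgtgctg

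Each of the 4 holds CAGCTG, as do 11 of all 50 members with a promoter in the table (22%), a sequence present in 17.74% of all 27305 promoters in the table and in 16.44% of those of 8972 eligible genes. GGGCGG or its complement is in 3 of the 4, in 35 of the 50 members (70%), in 44.59% of all promoters and in 72.04% of those of eligible genes. CCAAT occurs in PLOD2, in 17 of the 50 members (34%), in 35.7% of all promoters and in 37.53% of those of eligible genes. The 4 were chosen for display after their levels were known, so the shared letters are a description and no site is implied. LINC00674, ZNF26, PLOD2 and ITPRIPL1 hold 30, 28, 37 and 26 CpG dinucleotides, where the median is 27 over the eligible genes with a promoter and 14 over all promoters. The RefSeq start of PLOD2 lies 2.54 kb inside the gene as GENCODE draws it, and that of LINC00674 lies outside it, at -0.353 kb from the GENCODE start. A promoter was found for 50 of the 68 members (73.5%), under the 80% needed, so a comparison of letters over the whole set was void. The member shares above describe the matched members only, and nothing is read from them.

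The other members are described by known role, and roles were assigned after the values were seen. Over all members, 61.8% were at least 2 times as high in K/VP.5 as in K562, and 89.7% had a higher mean there. Among eligible genes these shares were 4.72% and 52.3%. Counts per role are to be read beside the shares over all members and are not read as traits of a role. Of 12 genes of collagen, matrix and the secretory pathway, 7 were at least 2 times as high in K/VP.5 as in K562, and the ratios of K562/SSedit-2 to K562 ran from 0.0691 for PLOD2 to 0.492 for PCOLCE2. COL23A1, a transmembrane collagen, gave 1.28, 1.31, 1.08 and 1.0997 CPM in K562 cells, 86.1, 77.8, 84.5 and 86.4 in K/VP.5, against 0.957, 0.638, 0.433 and 0.294 in the edited clone. The K/VP.5 mean was 70.2 times that of K562, and the K562 and K562/SSedit-2 replicates were separated by a small gap, from 0.957 to 1.08 CPM. Among markers of other cell types, 2 of the 4 genes of fibroblasts and mesenchymal cells, COL1A1 and COL1A2, were also higher in K/VP.5, with means of 2.585 and 4.63 CPM in K562 cells, 22.9 and 31.3 in K/VP.5, against 2.13 and 4.15 in the edited clone. The others, DCN and PDGFRB, were near or under 1 CPM, with means of 0.406 and 1.008 CPM in K562 cells, 0.136 and 0.9655 in K/VP.5, against 0.0908 and 1.281 in the edited clone. PECAM1, an endothelial and platelet marker, was at 24.5 CPM in K562 cells, 0.291 in K/VP.5 and 35.7 in the edited clone. The part of such cells in the K/VP.5 levels was not tested.

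SPARC, a collagen-binding matricellular protein, gave 2.81, 3.46, 2.17 and 2.399 CPM in K562 cells, 37.5, 36.2, 32.9 and 33.3 in K/VP.5, against 1.61, 1.12, 0.773 and 0.882 in the edited clone. LAMB1, the laminin β1 chain, was at 9.56, 8.71, 8.46 and 7.92 CPM in K562 cells, 38.3, 42.3, 39.8 and 39.3 in K/VP.5, against 3.34, 3.08, 2.44 and 2.17 in the edited clone. In both genes K/VP.5 was far above K562, and the edited clone below it. EGFLAM, the matrix protein pikachurin, had overlapping K562 and K/VP.5 replicates. It gave 14.2, 10.01, 9.57 and 7.55 CPM in K562 cells, 7.64, 7.95, 7.61 and 6.97 in K/VP.5, against 3.12, 1.701, 1.55 and 2.12 in the edited clone, and K562 replicate 1 was the highest of its line.

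The proteoglycans VCAN and SDC1 were at 2.803 CPM in K562 cells, 2.32 in K/VP.5 and 0.697 in the edited clone, and at 4.53 CPM in K562 cells, 8.596 in K/VP.5 and 1.97 in the edited clone, respectively. Among genes that act on procollagen, PLOD2 was far lower than the others, at 0.0691 of K562 in the edited clone against 0.486 for P3H3, 0.373 for FKBP10 and 0.492 for PCOLCE2. P3H3, a prolyl 3-hydroxylase family member, ranged over 6.87 to 10.2 CPM in K562 cells, 31.2 to 33.9 in K/VP.5, against 3.06 to 6.04 in the edited clone. FKBP10, a procollagen prolyl isomerase, ranged over 2.19 to 3.57 CPM in K562 cells, 4.41 to 5.23 in K/VP.5, against 0.705 to 1.54 in the edited clone. PCOLCE2, which enhances cleavage of the procollagen C-propeptide, ranged over 2.999 to 3.62 CPM in K562 cells, 7.31 to 8.55 in K/VP.5, against 1.203 to 1.95 in the edited clone. RCN3, a calcium-binding protein of the endoplasmic reticulum, lies 1.575 kb from the member FCGRT on chromosome 19 and was at 6.97 ± 1.07 CPM in K562 cells, 20.3 ± 0.6902 in K/VP.5 and 3.42 ± 0.644 in the edited clone (SD, n = 4).

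Of 4 ligands and secreted signals, 3 had a higher mean in K/VP.5 than in K562 (89.7% over all members). NPW, the precursor of neuropeptide W, was at 16.9, 15.8, 11.7 and 7.85 CPM in K562 cells, 13.3, 12.2, 16.04 and 15.7 in K/VP.5, against 5.31, 4.39, 2.69 and 1.998 in the edited clone, with a wide spread in the first and the last of these lines. WNT5B, a Wnt ligand, had overlapping K562 and K/VP.5 replicates at 3.72 to 5.201 CPM in K562 cells, 3.11 to 4.73 in K/VP.5, against 1.51 to 2.08 in the edited clone. NRTN, the GDNF family ligand neurturin, was at 2.399 CPM in K562 cells, 7.801 in K/VP.5 and 1.07 in the edited clone. FJX1, the human four-jointed homolog, was at 11.002 ± 1.77 CPM in K562 cells, 18.7 ± 2.07 in K/VP.5 and 4.2001 ± 0.413 in the edited clone (SD, n = 4).

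Of 8 surface receptors, 7 were at least 2 times as high in K/VP.5 as in K562 (61.8% over all members). PTK7, a catalytically inactive receptor tyrosine kinase of Wnt signalling, gave 40.8, 34.98, 27.9 and 25.6 CPM in K562 cells, 64.3, 79.4, 73.1 and 68.4 in K/VP.5, against 17.2, 16.8, 13.04 and 10.8 in the edited clone. PTPRJ, a receptor tyrosine phosphatase, was the exception, at 13.4, 11.2, 13.7 and 12.7 CPM in K562 cells, 14.5, 14.9, 14.01 and 14.9 in K/VP.5, against 4.43, 4.78, 4.85 and 4.41 in the edited clone. Its edited-clone values were tightly grouped at 2.76-fold below the K562 mean.

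STRA6, the receptor for retinol binding protein, was at 1.81 CPM in K562 cells, 17.5 in K/VP.5 and 0.379 in the edited clone. FGFR1, a fibroblast growth factor receptor, was at 1.57 to 2.38 CPM in K562 cells, 4.98 to 6.08 in K/VP.5, against 0.665 to 1.29 in the edited clone. GPR161, a receptor of the primary cilium that restrains Hedgehog signalling, was at 3.297 CPM in K562 cells, 11.9 in K/VP.5 and 1.44 in the edited clone. LRP4, the agrin co-receptor, and RTN4RL1, a Nogo receptor homolog, were 6.82 and 3.38 times as high in K/VP.5 as in K562 and stood at 0.465 and 0.496 of K562 in the edited clone. FCGRT, the neonatal Fc receptor that recycles IgG and albumin, was at 2.67 CPM in K562 cells, 7.099 in K/VP.5 and 1.06 in the edited clone.

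All 7 channel, transporter and other membrane genes had a higher mean in K/VP.5 than in K562 (89.7% over all members). KCNJ8, the Kir6.1 subunit of ATP-sensitive potassium channels, gave 1.198, 1.19, 1.22 and 1.02 CPM in K562 cells, 14.6, 12.9, 13.96 and 12.7 in K/VP.5, against 0.301, 0.239, 0.402 and 0.411 in the edited clone. K/VP.5 was 11.7 times K562. SLC4A11, a transporter of the bicarbonate family, differed less, at 3.498 to 4.48 CPM in K562 cells, 4.65 to 5.28 in K/VP.5, against 1.701 to 2.17 in the edited clone. CYBRD1, a duodenal ferric reductase, was at 8.23 CPM in K562 cells, 19.99 in K/VP.5 and 3.903 in the edited clone. VSTM4, a cell surface protein of the immunoglobulin fold, lay at the limit of the rule with 27.7, 28.1, 28.01 and 28.9 CPM in K562 and 13.9, 13.2, 14.6 and 14.4 in the edited clone, ranges with little spread. SYNGR1, a synaptic vesicle protein, had K562 replicates of 13.5, 11.2, 9.52 and 8.52 CPM and K562/SSedit-2 replicates of 7.001, 5.45, 4.11 and 3.35 CPM.

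In all 12 signalling adaptors and GTPase regulators the K/VP.5 mean was above the K562 mean, and in 10 it was at least 2 times as high. Over all members these shares were 89.7% and 61.8%. ARHGEF3, a guanine nucleotide exchange factor, was at 3.25, 1.76, 2.39 and 2.099 CPM in K562 cells, 4.78, 5.91, 4.82 and 4.18 in K/VP.5, against 0.438, 0.478, 0.402 and 0.647 in the edited clone, 4.84-fold below K562. PREX2, a Rac exchange factor, was at 1.47 CPM in K562 cells, 13.98 in K/VP.5 and 0.518 in the edited clone. ARHGEF17 was at 1.45 CPM in K562 cells, 3.57 in K/VP.5 and 0.508 in the edited clone. In the edited clone these 3 exchange factors were at 0.207 of K562 for ARHGEF3, 0.353 for PREX2 and 0.349 for ARHGEF17.

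MAGI1, a junctional scaffold protein, gave 26.5, 23.6, 26.98 and 26.2 CPM in K562 cells, 70.7, 74.9, 66.4 and 67.1 in K/VP.5, against 12.5, 7.97, 8.78 and 9.05 in the edited clone. IQGAP2, a Rac and Cdc42 effector scaffold, was at 10.3 ± 0.698 CPM in K562 cells, 32.4 ± 2.395 in K/VP.5 and 4.46 ± 0.401 in the edited clone (SD, n = 4). IRS1, the insulin receptor substrate, was 6.79 times K562 in K/VP.5 and 2.67-fold below it in the edited clone. TRAF5, an adaptor of TNF receptor family members, was at 8.83 CPM in K562 cells, 23.7 in K/VP.5 and 4.26 in the edited clone. GIPC3, a PDZ domain protein known from hearing, had K562 and K/VP.5 replicates that overlapped, at 8.72 to 16.1 CPM in K562 cells, 11.2 to 13.4 in K/VP.5, against 4.47 to 6.83 in the edited clone. AKAP7, a protein kinase A anchor, CABLES1, a CDK-binding protein, and CAMKV, a pseudokinase, stood at 0.269, 0.331 and 0.456 of K562 in K562/SSedit-2.

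The 5 cytoskeletal members lay between 0.399 and 0.489 of K562. MYO6, the minus-end directed myosin, gave 12.9, 13.5, 13.3 and 12.6 CPM in K562 cells, 44.5, 45.4, 46.1 and 42.9 in K/VP.5, against 5.61, 6.19, 5.903 and 7.88 in the edited clone. MARCKS, an actin-linked substrate of protein kinase C, gave 31.3, 35.4, 31.02 and 29.7 CPM in K562 cells, 39.5, 40.3, 36.5 and 39.4 in K/VP.5, against 15.1, 12.2, 15.9 and 13.99 in the edited clone. The K/VP.5 level was 3.42 times K562 in MYO6 and 1.22 times in MARCKS. PALM, a lipid-anchored membrane protein of cell protrusions, was at 16.5 ± 4.32 CPM in K562 cells, 41.7 ± 1.56 in K/VP.5 and 7.26 ± 2.12 in the edited clone (SD, n = 4). ESPNL, an espin relative, and ENC1, an actin-binding Kelch protein, were 2.51-fold and 2.25-fold below K562.

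NLRP2 and NLRP7, NLR family members known from oocytes and early embryos, are overlapping neighbours on chromosome 19, and reads may not be told apart where they share sequence. NLRP2 gave 88.2, 92.97, 96.8 and 95.9 CPM in K562 cells, 120.2, 129, 125 and 129.5 in K/VP.5, against 43.8, 45.4, 45.4 and 44.7 in the edited clone, with narrow spread in each line. NLRP7 gave 0.963, 1.72, 1.65 and 1.4996 CPM in K562 cells, 2.23, 2.17, 2.38 and 1.55 in K/VP.5, against 0.438, 0.824, 0.834 and 0.529 in the edited clone. Both stood in the same order across the lines, at 0.479 and 0.450 of K562 in the edited clone. The next expressed genes outside the set, LENG9 and GP6, were at 6.22 and 6.73 CPM in K562 and at 4.57 and 10.7 CPM in K562/SSedit-2.

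Among 3 enzymes, NAT8L, which makes the brain metabolite N-acetylaspartate, gave 90.2, 123, 109 and 89.1 CPM in K562 cells, 263, 255.98, 258 and 284 in K/VP.5, against 52.6, 41.5, 41.1 and 30.1 in the edited clone. It was 2.49-fold lower in the edited clone than in K562 and 6.42-fold lower than in K/VP.5. USP13, a deubiquitinase, was at 10.6 ± 0.683 CPM in K562 cells, 19.7 ± 1.599 in K/VP.5 and 5.05 ± 0.168 in the edited clone (SD, n = 4). GXYLT2, a xylosyltransferase that extends O-glucose on Notch, was at 3.5997 CPM in K562 cells, 6.798 in K/VP.5 and 1.27 in the edited clone.

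Of 8 transcription and chromatin genes, 6 had a K/VP.5 mean at least 2 times the K562 mean (61.8% over all members). SMARCA1, the ISWI chromatin remodeler SNF2L, and HOXB6, a homeobox factor, did not. SMARCA1 gave 17.3, 18.3, 16.9 and 17.5 CPM in K562 cells, 14.7, 15.5, 13.8 and 13.7 in K/VP.5, against 6.04, 6.38, 5.84 and 6.35 in the edited clone, and each group was tight and apart from the others. HOXB6 gave 1.64, 2.77, 2.196 and 2.47 CPM in K562 cells, 1.602, 1.73, 1.91 and 2.24 in K/VP.5, against 0.711, 0.9304, 1.298 and 0.705 in the edited clone, with K562 and K/VP.5 overlapping. POU3F2, a neural POU factor, was at 2.48 CPM in K562 cells, 7.13 in K/VP.5 and 1.05 in the edited clone. NFIB, a nuclear factor I protein, was 8.37 times K562 in K/VP.5 and 3.36-fold below it in the edited clone.

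ZNF525 and ZNF813 lie 75.5 kb apart in a cluster of related zinc finger genes on chromosome 19, whose paralogs can share reads. ZNF525 gave 2.29, 2.199, 3.06 and 2.42 CPM in K562 cells, 4.83, 6.35, 6.17 and 4.87 in K/VP.5, against 0.8204, 0.824, 0.742 and 0.823 in the edited clone. ZNF813 gave 1.198, 0.871, 1.06 and 1.17 CPM in K562 cells, 5.36, 5.99, 5.76 and 4.62 in K/VP.5, against 0.219, 0.478, 0.247 and 0 in the edited clone. Their closest expressed neighbours outside the set, ZNF845 and ZNF761, were at 10.99 and 6.297 CPM in K562 and at 13.4 and 7.899 CPM in K562/SSedit-2.

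MAGEA9B, a cancer-testis gene, has a near-identical copy, MAGEA9, so its counts are uncertain. It gave 0.937, 1.15, 1.03 and 1.37 CPM in K562 cells, 52.8, 49.3, 53.9 and 56.5 in K/VP.5, against 0.355, 0.319, 0.433 and 0.529 in the edited clone, and K/VP.5 was 47.4 times K562. C10orf71, a gene of cardiac muscle, lies 184 kb from VSTM4 on chromosome 10 and gave 6.77, 5.75, 6.21 and 5.87 CPM in K562 cells, 23.3, 24.2, 22.1 and 23.1 in K/VP.5, against 2.05, 2.23, 2.19 and 2.29 in the edited clone. TMEM273, the expressed gene between VSTM4 and C10orf71, was at 82.0 CPM in K562 and 123 CPM in K562/SSedit-2. The long non-coding RNA ENSG00000261448 on chromosome 16 was at 1.41 CPM in K562 cells, 2.06 in K/VP.5 and 0.693 in the edited clone.

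**Figure D5:**
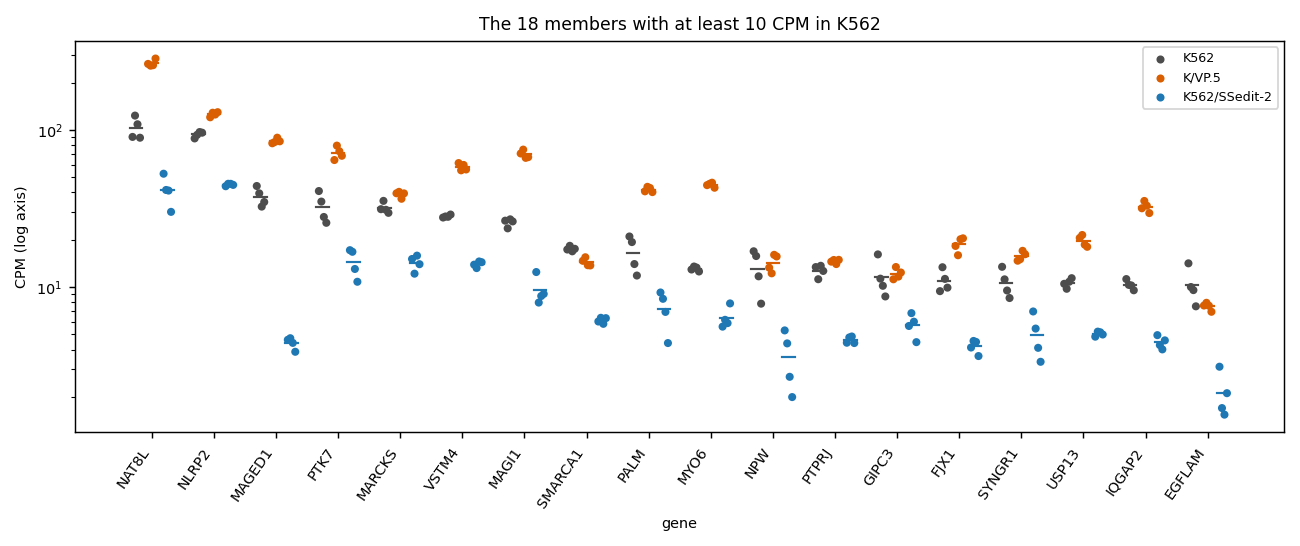
CPM (log axis) of the 18 members with a K562 mean of at least 10 CPM, 4 libraries per line with a bar at the mean. All K562/SSedit-2 points lie below those of the other lines, MAGED1 shows the widest separation, and SMARCA1 and EGFLAM are the genes whose K/VP.5 mean lies below the K562 mean.

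In 19 members the K/VP.5 mean stayed within 1.5-fold of the K562 mean. They include the 4 genes of the chromosome 17 run and SVEP1, the proteins NLRP2, NLRP7, MARCKS, SMARCA1, NPW, PTPRJ, GIPC3, SYNGR1, EGFLAM, WNT5B, SLC4A11, VCAN and HOXB6, and the RNA ENSG00000261448. In the other members the edited clone and K/VP.5 stood on opposite sides of K562.

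Lists of genes by function, chosen with earlier results of these data known, held 0 to 4 members each. Over all genes, 0.541% of those eligible were members, and 1.26% of those tested were lower and 0.805% higher past the cutoff in K562/SSedit-2 than in K562. Of 47 genes listed for cell adhesion and extracellular matrix, 20 were eligible and 3 were members, EGFLAM, LAMB1 and SPARC, and of 33 tested 6 were lower (18.2%) and 1 higher (3.03%). Of 23 genes of type II MAGE and apoptosis adaptors, 11 were tested, 3 were lower (27.3%), 1 was higher, and MAGED1 was the member. The list of homeobox and developmental factors had 62 tested genes, 4 lower and 1 higher, with HOXB6 the member. Among 447 tested genes named ZNF, 9 were lower (2.01%) and 2 higher, and ZNF26, ZNF503, ZNF525 and ZNF813 were members of 344 eligible. The lists of G protein-coupled receptors (36 tested, 4 lower, 2 higher), small GTPases and their regulators (76, 5 and 1), receptor kinases and cytokine receptors (50, 1 and 2), ion channels (51, 2 and 0) and actin and cytoskeleton genes (62, 1 and 0) held GPR161, ARHGEF3, FGFR1, KCNJ8 and MYO6. Of 25 tested collagen genes 4 were lower (16%) and 0 higher, and COL23A1 was the member. The SLC and LINC name families held SLC4A11 and LINC00674, with 3 lower and 3 higher of 269 and 6 lower and 4 higher of 288.

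Some lists held no member, and nothing is read from this, since 0.541% of eligible genes were members and these lists held few eligible genes. Eligible were 24 erythroid genes, 52 of G2 and M phase, 17 of the interferon response, 4 of megakaryocytes and platelets and 32 endocytic adaptors and CBL partners. In the TMEM, KRT and PCDH families 145, 11 and 0 were eligible. Of 28 erythroid genes 0 were lower and 3 higher in K562/SSedit-2, of 54 genes of G2 and M phase 1 was lower and 0 higher, and of 26 interferon response genes 1 was lower and 2 higher. Of 11 megakaryocyte and platelet genes 0 were lower or higher. Of 42 genes for endocytic adaptors and CBL partners 1 was lower, and the TMEM, KRT and PCDH families had 2, 0 and 1 lower of 191, 20 and 9. Median log2 fold changes against K562 were -0.27 for the adhesion and matrix list and 0.44 for the erythroid list, where all tested genes had -0.01.

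Members were spread over the chromosomes. Chromosome 19 held 9 of its 923 eligible genes (0.975%), chromosome 17 held 7 of 812 (0.862%), chromosome 3 held 7 of 670 (1.045%), chromosome 5 held 6 of 560 (1.07%) and chromosome 1 held 2 of 1299 (0.154%), against 0.541% overall. Chromosomes 13, 14 and 21 held 0 of 197, 407 and 158. Of the 68, 12 had another member within 1 Mb. Apart from the chromosome 17 run, these were NLRP2 with NLRP7, RCN3 with FCGRT, ZNF525 with ZNF813, and VSTM4 with C10orf71. Eligible genes within 1 Mb of a member, 1074 in all and none of them members, had a median log2 ratio of K562/SSedit-2 to K562 of -0.08. For all 12471 placed eligible genes outside the set it was -0.03. At most 0.5 of K562 were 1 of the 1074 (0.0931%) and 17 of the 12471 (0.136%). The rule takes most genes that low into the set, so both shares were low by construction. Of the 124 nearest genes outside the set with at least 5 CPM in K562, 118 were within 1.5-fold of K562, and the log2 ratios of all 124 ran from -0.80 to 0.67. The other 6 were TBXA2R, 0.966 kb from GIPC3, at -0.80, C4orf48, 15.4 kb from NAT8L, at -0.76, TNKS1BP1, 9129 kb from PTPRJ, at -0.74, HOXB7, 2.24 kb from HOXB6, at -0.70, ARHGAP22, 358 kb from VSTM4, at -0.59 and GP6 at 0.67. Members and genes that overlap a member were not counted as neighbours, so NLRP2 beside NLRP7 and RCN3 beside FCGRT, both under 0.5 of K562, are not among them.

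The guide used for editing, sgRNA-1, matches TOP2A at chr17:40404151-40404173 on the minus strand, PAM included. It is shown with the PAM in capitals because sites that resemble it elsewhere could be cut.

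sgRNA-1 site in TOP2A: gtcttcttatcatcatggtgAGG

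Besides TOP2A, 135 sites with NGG and up to 4 mismatches were found in the primary chromosomes of GRCh38, the closest with 3 mismatches at 9 sites, and 0 of them were on chromosome 17. None of the 68 members had a site inside it or within 100 kb, where 0.191% and 0.917% of the eligible genes did. When no more than 2 mismatches were allowed in the PAM-side 12 bases, 70 sites remained and 0 members had one within 100 kb. Editing at these genes was not measured.

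The limits of the rule cut through a continuum. At the limit of 0.5, VSTM4 and RTN4RL1 were inside with 0.497 and 0.496 of the lower line, and SLC25A43 and CHSY3 were outside with 0.501 and 0.504. At the K562 floor, ENSG00000277476 and ZNF813 were inside with 1.01 and 1.08 CPM, and FGD1 and ENSG00000267284 were outside with 0.916 and 0.901 CPM. For K/VP.5, EGFLAM and SMARCA1 were inside at 0.730 and 0.823 of K562, and VTRNA1-3 and ZNF724 were outside at 0.496 and 0.359. Of 127 genes that were at most 0.5 of K562 in the edited clone without overlap of replicates, 50 were at most 0.5 in K/VP.5 too, 9 were over 0.5 there but not low enough against K/VP.5, and 68 are the members.

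The rule was also applied with all libraries of 1 replicate number left out, and the genes it then chose were looked up in the libraries left out. Leaving out numbers 1, 2, 3 and 4 chose 72, 71, 66 and 69 genes. In the left-out libraries 69, 67, 65 and 68 of them were lowest in K562/SSedit-2 (95.8, 94.4, 98.5 and 98.6%), where 27.4, 35.7, 38.9 and 42.1% of eligible genes were. At most 0.5 of both other lines were 44, 50, 54 and 52 of them (61.1, 70.4, 81.8 and 75.4%), where 0.677, 0.727, 0.712 and 1.56% of eligible genes were. Of the genes chosen, 61, 61, 63 and 60 were members, and the left-out libraries come from the same clones, so these shares describe agreement among replicates and are no independent support for the set. Same-numbered libraries of K562 and K562/SSedit-2 deviated together, so the left-out libraries were not fully independent of each other.

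Without K562 replicate 1, 62 genes met the rule, of which 60 were members. The median ratio of K562/SSedit-2 to K562 over the 68 members was then 0.379 and that of K/VP.5 to K562 was 2.62. In 8 members, GIPC3, SYNGR1, RCN3, SLC4A11, PCOLCE2, FGFR1, ENC1 and LRP4, the ratio to K562 was above 0.5, to 0.570 in GIPC3 and 0.502 to 0.511 in the others. Replicate 1 was the highest K562 library in 26 members and the lowest in 17. Without K562/SSedit-2 replicate 4, 61 genes met the rule, of which 59 were members, and without K562/SSedit-2 replicate 3, 65 genes, of which 61 were. Leaving out any other single library kept 62 to 68 members.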

How the data were processed

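Gene expression was measured by RNA-seq with 4 replicates of each of 3 lines. The authors mapped paired-end reads to GRCh38 with HISAT2 and deposited featureCounts counts, whole numbers without normalization, for 60671 Ensembl genes. The annotation release, strand setting and treatment of multi-mapped reads are not given in the sources used here, so overlapping genes and paralogs have uncertain counts. Of the gene IDs, 60401 were found in GENCODE 44, which gave symbols, types and positions.

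CPM was each count as a share of its column total. The fits used edgeR 4.0.16 in R 4.3.3, with filterByExpr at a minimum count of 10 (18626 genes), TMM factors, all 12 samples in 1 quasi-likelihood fit by line, Benjamini-Hochberg adjustment over all tested genes, and cutoffs of 2-fold and 10% false discovery rate. The standard error was taken as the size of the log2 fold change over the root of F. DESeq2 1.42.0 and limma 3.58.1 were alternatives. The steps were tested on simulated data. Figures were drawn with matplotlib 3.10.9.

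The members and lists were chosen with earlier results of these data known. Genes were named if they were members with at least 10 CPM in K562, among the 10 lowest against the other lines or the 5 highest in K/VP.5 against K562, on a list, within 1 Mb of another member, or next to a threshold. The other members were named, and all were grouped by role, after their values were seen.

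Replicate numbers come from the sample labels. Deviations from the line means of same-numbered K562 and K562/SSedit-2 libraries correlated at 0.135 to 0.292 across genes. For other numbers the mean was -0.07. Same-numbered K/VP.5 libraries correlated at -0.003 to 0.27 with K562 and at -0.095 to 0.161 with K562/SSedit-2. The main fit held no replicate term, so its fold changes, standard errors and adjusted p-values, TOP2A included, take no account of these correlations. Replicate numbers entered only as a block in an alternative fit. No replicates were duplicates, with a chi-square per degree of freedom of 5.39 to 65.6. Reads, and so splicing within TOP2A, were not analysed here.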

Additional observations from a re-analysis of the deposited data

Results flagged for a closer look

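Over 138 groups of 4 libraries, 5 had a highest or lowest library whose gap to the next, divided by the whole range of the group, exceeded the 95% critical value of Dixon's test for 4 samples. Chance flags about 5% of groups.

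LRRC37A16P in K562/SSedit-2 had a gap ratio of 1.000, since replicate 2 was at 0.0266 CPM, which is 1 count, and the others at 0. ENSG00000277476 in K562/SSedit-2 also had 1.000, with replicate 3 at 0.0309 CPM, again 1 count, and the others at 0. LRRC37A16P in K562 had 0.835, with replicate 2 at 0.893 CPM and the others at 1.32 to 1.41 CPM. KCNJ8 in K562 had 0.853, with replicate 4 at 1.02 CPM and the others at 1.19 to 1.22 CPM. ZNF525 in K562/SSedit-2 had 0.955, with replicate 3 at 0.742 CPM and the others at 0.820 to 0.824 CPM.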

How the results depend on the processing

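The number of genes meeting the rule depended most on its own limits. It was 26 with a K562 floor of 5 CPM, 167 with a limit of 1/1.5 in place of 1/2, 23 with a limit of 1/3 and 19 with K/VP.5 held within 1.5-fold of K562. Calls of edgeR in place of the rule gave 146 genes, 65 of them members, and 149 when replicate numbers entered as a block, 64 of them members. TMM-scaled totals gave 68 genes, 67 shared, and DESeq2 size factors 66, all shared. A floor of 0.5 CPM gave 90 genes, and allowing overlap 71. Leaving out 1 library gave 61 to 81 genes, and leaving out 1 replicate number 66 to 72.

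With the replicate block, members lower past the cutoffs numbered 64 against K562 and 68 against K/VP.5, and 42 were higher in K/VP.5 than in K562. Leaving out 1 library gave 54 to 67, 66 to 68 and 39 to 43, with 54 of 68 without K562 replicate 1. The genes called in K562/SSedit-2 against K562 were 384 in all and 398 with the block, and every other fit stayed within 1.5 times that number. The block moved none of these counts by over 1.5 times. Of 2550 values of single named genes under the alternatives, 35 moved by more than the spread between replicates (1 SD of the difference). A change of sign was counted only for values past the cutoffs in the main fit, and 0 of these reversed.

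Depth limits the members near 1 CPM, where some libraries of the edited clone held fewer than 10 counts. The result rests on 1 edited clone, and other edited or unedited clones of K562 were not analysed here.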
